A study of Mus musculus with 10 samples.

Results

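Foxp3+ regulatory T cells (Tregs) of the spleen that lacked CD69 and Klrg1 were compared by their CD62L: the CD62Llo fraction, FR2, against the CD62Lhi fraction, FR1. Members were chosen by the titles of the arrays and by nothing measured on them, which gave 2 FR1 and 2 FR2 arrays of the 10 in the series. In both groups CD4+ cells were sorted from the spleens of C57BL/6 females, 9 to 14 weeks old, by a red fluorescent reporter of Foxp3 that every group shares, with no other genotype and no treatment named in the labels. Total RNA, between 20 and 50 ng, was amplified and read on Affymetrix Mouse Gene ST 1.0 arrays. The other arrays held CD69+ Tregs and 1 array whose title and markers disagree. The labels call the arrays of a group biological replicates, and do not say whether each came from 1 mouse or a pool. A sorted fraction is a bulk sample, so fewer cells of a type and less RNA per cell cannot be told apart.

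CD62L lets lymphocytes leave the blood through the high endothelial venules of lymph nodes, together with the chemokine receptor Ccr7. Tregs that keep both recirculate through lymphoid organs and are often called central or resting. Tregs that have lost CD62L after activation carry receptors for inflamed and barrier tissues and are often called effector Tregs. CD69 is displayed soon after T cell receptor signals and Klrg1 late in differentiation, and neither protein was displayed by the cells of FR1 or FR2.

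All values are RMA log2 intensities, on which a difference of 1 is 2-fold. Array medians lay between 6.15 and 6.24. Replicates correlated across genes at r = 0.989 in FR1 and 0.990 in FR2, and arrays of different groups at 0.982 to 0.987. The difference, FR2 minus FR1, is given with the standard error (SE, n = 2 and 2) and the adjusted p of limma. Both borrow a common spread from all genes, so the SE is not a gene's own replicate spread. An exact permutation of 2 arrays against 2 cannot give a p below 0.333, so no single gene was tested that way.

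The sorted cells carried the RNA of the lineage they were sorted for. Foxp3, the transcription factor that defines Tregs, stood at 10.65 and 10.93 in FR1 and at 10.91 and 10.71 in FR2 (adjusted p = 0.964). Cd4 lay between 11.04 and 11.38 on the 4 arrays. The mean of 11 measured T cell markers lay between 11.36 and 11.40. Cd69 RNA, at 12.11 and 12.41 in FR1 and 11.86 and 12.17 in FR2, overlapped between the groups (adjusted p = 0.429). Its mean lay at percentile 99.5 of the genes, although both gates took cells without the protein. On the CD69+ Klrg1- arrays of the same array set it stood at 12.025 and 12.155, which was not tested. Of the 4 measured sort markers limma called only Klrg1. It stood at 5.44 and 5.78 in FR1 and at 6.58 and 6.44 in FR2. Its RNA was thus higher in FR2 by 0.90 ± 0.15 (adjusted p = 0.00145), although both gates were drawn on cells without the protein.

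Of 19938 genes, 477 rose in FR2 (2.39%) and 581 fell (2.91%), 1058 in all (5.31%), and the median difference over all genes was 0.02. Few of these changes were large. Among the called genes the median absolute difference was 0.65, and 103 higher genes (0.517% of those tested) and 55 lower genes (0.276%) differed by at least 1. Differences above 2 occurred in 13 higher genes and in 0 lower genes. Of the higher genes, 36 had both FR1 arrays under percentile 25 of the array. The number of calls fell to 406 without FR1 replicate 1, to 391 without FR1 replicate 2, to 345 without FR2 replicate 1 and to 750 without FR2 replicate 2. In each such fit 1 group has a single array, which is assumed to vary like the other group and the common spread. A fit to every row of the table gave 66 calls, and 1 to all 9 grouped arrays without a term for their array set gave 52. Non-overlap alone is common with so few arrays: both FR2 arrays were above both FR1 arrays in 25.4% of genes, and below them in 23.1%.

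**Figure D1:**
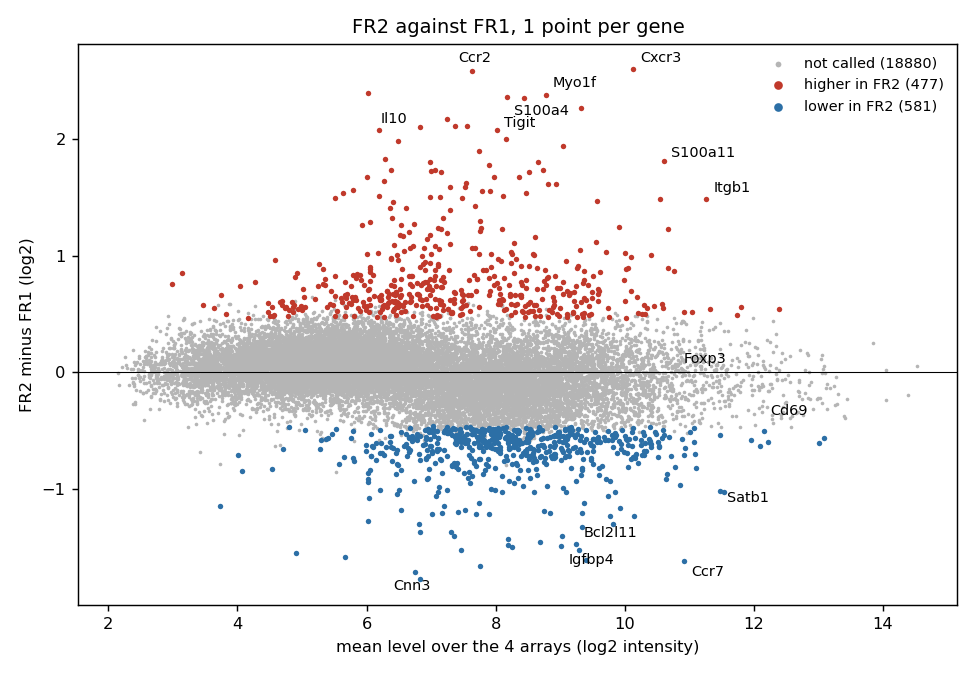
Difference FR2 minus FR1 (log2) against the mean level of the 4 arrays (RMA log2 intensity), 1 point a gene; red points rose and blue points fell in FR2 by limma at an adjusted p of 0.05. The 13 called genes above 2 include Cxcr3, Ccr2, Ccr4 and Il10, and no called gene lies below -2.

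Among chemokine receptors, RNA of Cxcr3, Ccr2, Ccr4, Cxcr6, Ccr6 and Ccr3 was higher in FR2 cells and RNA of Ccr7, which guides cells to lymph nodes, was lower. Of 19 measured receptors 8 rose (42.1%, against 2.39% of all genes) and 1 fell (5.26%, against 2.91%), and the median difference was 0.41. The list, like every gene list here, was chosen with earlier results of these data known, so its count is a description. Cxcr3, the receptor for interferon-induced chemokines that marks Tregs of type 1 inflammation, stood at 8.69 and 8.98 in FR1 and at 11.45 and 11.41 in FR2. Ccr2, the receptor for monocyte chemoattractants, went from 6.18 and 6.52 to 8.84 and 9.01. For both, every FR2 array was far above every FR1 array, by 2.59 ± 0.14 for Cxcr3 and 2.58 ± 0.15 for Ccr2 (both adjusted p = 8.55e-08). Ccr4, a receptor of skin-homing T cells and of Tregs, rose from 8.06 and 8.32 to 10.39 and 10.51, a 4.81-fold difference (adjusted p = 2.04e-07).

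Smaller rises were seen for Cxcr6 (1.64 ± 0.21, adjusted p = 0.000153), a receptor of liver and tissue-resident T cells, for Ccr6 (2.83-fold, adjusted p = 1.51e-05), which follows Ccl20 to mucosal sites, and for the eosinophil receptor Ccr3 (1.41 ± 0.15, adjusted p = 3.01e-05). Cxcr6 was among the noisier receptors, at 5.14 and 5.76 in FR1 and 6.76 and 7.40 in FR2, still without overlap. The rise of Cxcr5 (0.62, adjusted p = 0.0249), the receptor for B cell follicles, and of the atypical receptor Ccrl2 (1.21, adjusted p = 7.1e-05) completed the 8; both were named after their values were seen. Cxcr5 passed without FR1 replicate 2 and lost its call without each of the other arrays (adjusted p up to 0.184). Ccr8, a receptor of skin and tumour Tregs, was at 7.53 and 8.08 in FR1 and 8.12 and 8.64 in FR2 and did not pass (adjusted p = 0.0905). Ccr7 stood at 11.67 and 11.79 in FR1 and at 10.10 and 10.14 in FR2, 3.06-fold lower (adjusted p = 1.76e-06).

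**Figure D2:**
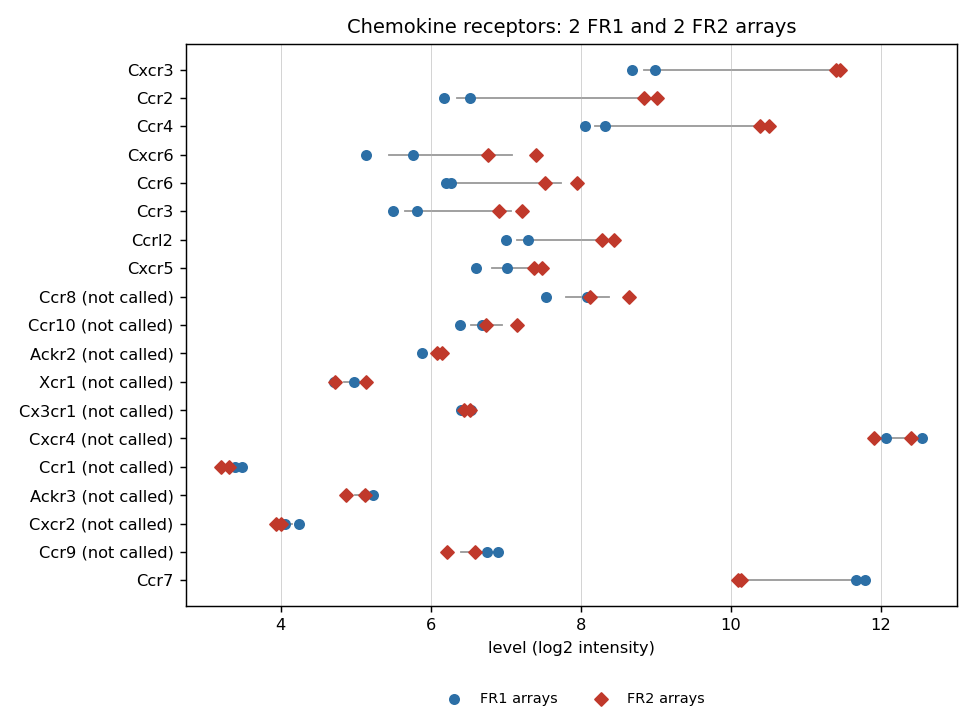
Levels (RMA log2 intensity) of chemokine receptors on each of the 4 arrays, FR1 as blue circles and FR2 as red diamonds, with a grey line joining the group means. Cxcr3, Ccr2 and Ccr4 lie at least 2 log2 units higher in FR2, and Ccr7 lies 3.06-fold lower.

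Adhesion molecules followed, with 9 of 28 higher (32.1%, against 2.39% of all genes), 1 lower (3.57%, against 2.91%) and a median of 0.10. Itgae (CD103), the alpha chain that pairs with beta 7 to bind E-cadherin on epithelium, stood at 6.99 and 7.53 in FR1 and at 9.65 and 9.57 in FR2. That is 5.10-fold higher (adjusted p = 5.41e-07), while its partner chain Itgb7 went from 11.28 and 11.22 to 11.14 and 11.07 and did not pass (adjusted p = 0.612). Itgb1, the common beta 1 chain, was at 10.47 and 10.56 in FR1 and 12.08 and 11.92 in FR2. Itga2, the collagen-binding partner of beta 1, rose by 1.59 ± 0.13 (adjusted p = 2.32e-06). Itgb8, whose pairing with alpha v releases active TGF-beta, rose from 7.47 and 7.51 to 8.73 and 8.70 (adjusted p = 2.3e-05), and its partner Itgav, named after its values were seen, rose by 0.86 (adjusted p = 0.000803). Both chains of that TGF-beta activating integrin were therefore higher. Cd44, the hyaluronan receptor by which memory and effector T cells are usually gated, rose by 0.91 ± 0.14 (adjusted p = 0.000888), and Nrp1, a semaphorin co-receptor of thymus-derived Tregs, by 1.00 ± 0.13 (adjusted p = 0.000238). Itgal, the alpha chain of LFA-1, differed by 0.27 (adjusted p = 0.284).

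Genes of lymphoid homing and quiescence moved the opposite way. Of 26 measured, 18 fell in FR2 (69.2%, against 2.91% of all genes), 0 rose, and the median was -0.73. This list was chosen with earlier results of these data known, so its count is a description. Besides Ccr7, Gpr83, an orphan receptor of naive-like Tregs, stood at 9.98 and 10.11 in FR1 and at 8.30 and 8.76 in FR2. Igfbp4, a secreted binder of insulin-like growth factors found in naive T cells, was at 9.67 and 9.86 in FR1 and 8.28 and 8.27 in FR2. Atp1b1, a beta subunit of the sodium pump, fell by 1.48 ± 0.14 on the log2 scale (adjusted p = 1.16e-05). Cnn3, an actin-binding calponin, showed the largest fall of any gene in the naming rule, from 7.67 and 7.54 to 5.95 and 5.85 (adjusted p = 1.17e-06).

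Some transcription factors of the naive state were among the genes that fell. These were Satb1, a chromatin organiser, from 11.99 and 11.99 to 10.94 and 11.01 (adjusted p = 0.00016), and Bach2, a repressor that holds T cells back from effector differentiation, from 9.62 and 9.46 to 8.65 and 8.44 (adjusted p = 0.000352). Lef1 (-0.51, adjusted p = 0.0321) and the E-protein inhibitor Id3 (-0.64, adjusted p = 0.00983) also passed; these 4 were named after their values were seen. Lef1 lost its call without any 1 array (adjusted p up to 0.196) and with quantile normalization (0.0597), and Id3 without each array but FR2 replicate 2 (up to 0.145). Klf2, which drives transcription of S1pr1, was at 11.09 and 11.43 in FR1 and 10.62 and 10.60 in FR2. Its adjusted p of 0.0135 became 0.17 without FR1 replicate 2, 0.111 without FR2 replicate 1 and 0.0732 without FR2 replicate 2. S1pr1, the receptor for egress from lymph nodes, was at 12.09 and 12.05 in FR1 and 11.91 and 11.86 in FR2. It did not pass (adjusted p = 0.473), and neither did Foxo1, which acts upstream of Klf2 (difference -0.07, adjusted p = 0.84). The listed factors Foxp1 (-0.33, adjusted p = 0.162), Klf3 (-0.08, adjusted p = 0.823) and Ets1 (0.03, adjusted p = 0.946) did not pass either.

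**Figure D3:**
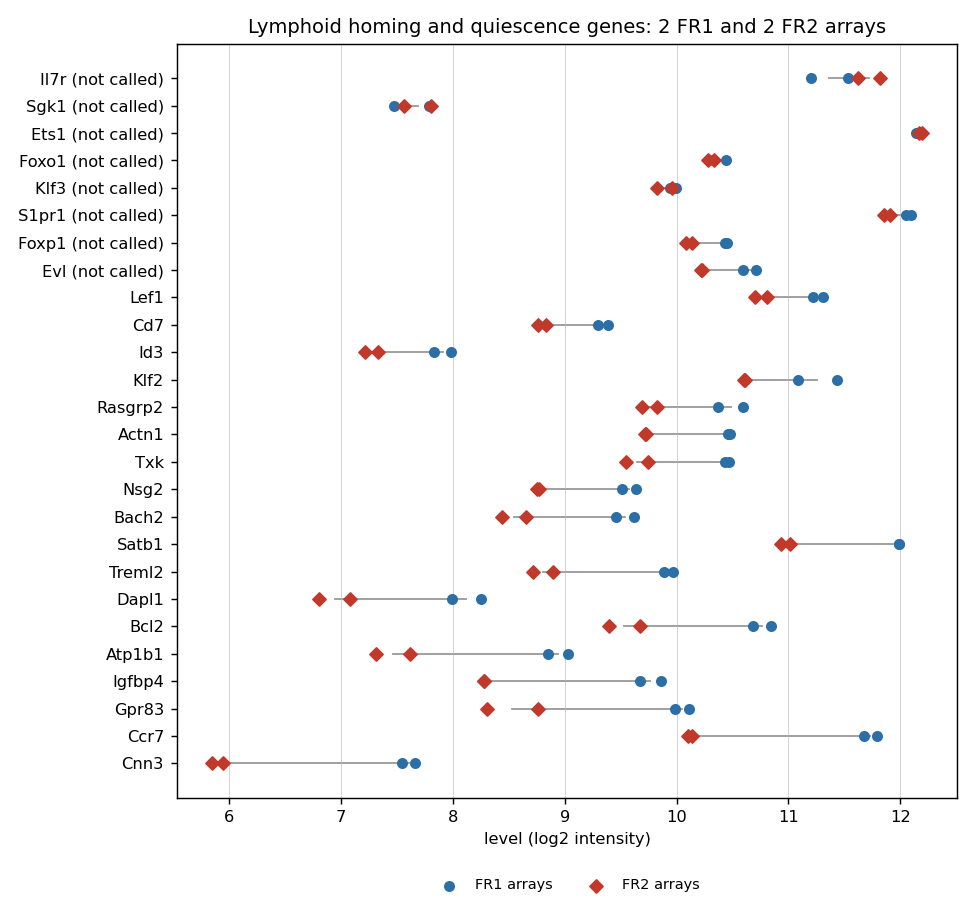
Levels (RMA log2 intensity) of lymphoid homing and quiescence genes on each of the 4 arrays, FR1 as blue circles and FR2 as red diamonds, with a grey line joining the group means. Both FR2 arrays lie below both FR1 arrays for Ccr7, Igfbp4, Atp1b1, Gpr83 and Cnn3, and the S1pr1 groups lie 0.19 apart.

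Suppressor molecules rose broadly: 12 of 19 were higher (63.2%, against 2.39% of all genes) and 1 lower (5.26%, against 2.91%), with a median of 0.54. This list too was chosen with earlier results of these data known, so its count is a description. Fgl2, a secreted fibrinogen-like protein with which Tregs act on dendritic cells, stood at 6.03 and 6.31 in FR1 and at 8.13 and 8.54 in FR2. Il10, the anti-inflammatory cytokine, went from 5.46 and 6.11 to 7.73 and 8.04 (2.10 ± 0.18, adjusted p = 4.02e-06). Tigit, an inhibitory receptor for CD155 and a marker of effector Tregs, was at 6.72 and 7.25 in FR1 and 9.13 and 8.98 in FR2. All 3 were more than 4-fold higher, and their groups lay more than 1.5 log2 units apart. Gzmb, the serine protease granzyme B, rose from 4.90 and 5.12 to 6.41 and 6.74 (2.96-fold, adjusted p = 8.33e-06).

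The rest of the group moved less. Ebi3, a subunit of IL-27 and IL-35, rose by 0.88 ± 0.14 (adjusted p = 0.00112) and Nt5e (CD73), which makes adenosine, by 0.88 ± 0.14 (adjusted p = 0.0015). Lag3, an inhibitory receptor for MHC class II, passed with all 4 arrays (0.56, adjusted p = 0.0178) and in 0 of the 4 fits that left 1 array out (adjusted p up to 0.152). Without FR1 replicate 1, FR1 replicate 2 or FR2 replicate 1 the number of higher suppressor genes was 7, and it was 8 without FR2 replicate 2. Ctla4, the inhibitory receptor that Tregs hold at a high level, was at 12.33 and 12.43 in FR1 and 12.40 and 12.54 in FR2 and did not pass (adjusted p = 0.798). Prf1, the pore-forming protein that delivers granzymes, was lower at 6.68 and 6.66 in FR2 against 7.33 and 7.26 in FR1 (adjusted p = 0.00882, and 0.0591 to 0.0861 without any 1 array).

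The 250 bases before an annotated start are shown for Fgl2 and Gzmb, which rose, and for Bcl2l11, a cell death gene that fell. They were chosen as members from both directions whose window lies outside the gene and holds a searched motif. They come from RefSeq on GRCm38.p6 and run 5′ to 3′ on the gene's own strand, with matches to a searched motif in capitals. For Fgl2 the capitals mark an AP-1 match, 16 bases before the start; for Gzmb an AP-1 and then a RUNX match, 58 and 34 bases before it; and for Bcl2l11 a FOXO match read on the opposite strand, 227 bases before it. Bcl2l11 has 2 annotated starts, and the window of the other holds no match.
Fgl2, chr5:21372423-21372672, plus strand: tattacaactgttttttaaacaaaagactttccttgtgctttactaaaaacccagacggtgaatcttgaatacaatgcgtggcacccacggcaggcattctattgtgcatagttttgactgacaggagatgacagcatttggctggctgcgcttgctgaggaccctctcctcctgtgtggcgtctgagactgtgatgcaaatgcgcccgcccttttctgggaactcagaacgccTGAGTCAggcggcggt
Gzmb, chr14:56262335-56262584, minus strand: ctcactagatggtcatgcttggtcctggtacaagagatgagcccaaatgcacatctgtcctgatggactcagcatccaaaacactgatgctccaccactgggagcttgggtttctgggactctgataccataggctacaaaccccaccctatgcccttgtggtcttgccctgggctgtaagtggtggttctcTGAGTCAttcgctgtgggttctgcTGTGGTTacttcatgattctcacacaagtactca
Bcl2l11, chr2:128125788-128126037, plus strand: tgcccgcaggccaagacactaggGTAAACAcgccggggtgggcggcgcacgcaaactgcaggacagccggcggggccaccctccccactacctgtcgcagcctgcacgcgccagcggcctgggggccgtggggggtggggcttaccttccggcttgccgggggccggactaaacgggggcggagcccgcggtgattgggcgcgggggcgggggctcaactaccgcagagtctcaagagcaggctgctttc

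Such letters occur in many promoters. Altogether 5 motifs were searched on both strands, each scored by itself even where matches overlap: TGANTCA (AP-1), TGTTTAC (FOXO), GGTGTGA (T-box), CACACCC (KLF) and TGTGGTT (RUNX). The AP-1 letters were in 6.75% of all RefSeq windows, in 6.03% of those of genes tested, in 6.22% of those of genes that rose and in 4.01% of those of genes that fell. In the same order these shares were 3.17%, 2.67%, 2.58% and 2.96% for FOXO and 4.40%, 3.61%, 4.29% and 4.18% for RUNX. For the T-box letters they were 3.33%, 3.14%, 3.86% and 2.61%, and for the KLF letters 6.93%, 7.41%, 7.30% and 6.45%. These shares describe the windows and were not tested, and a match is not a bound site.

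Inhibitory and costimulatory molecules had smaller medians than the suppressor molecules. Of 16 co-inhibitory receptors 4 rose and 0 fell, with a median of 0.06. Besides Tigit and Lag3 they were Pdcd1 (PD-1), at 7.68 and 7.80 in FR1 and 8.74 and 8.77 in FR2 (1.01 ± 0.13, adjusted p = 0.000183), and Cd200r1 (0.66, adjusted p = 0.012, but 0.119 without FR1 replicate 1 and 0.145 without FR2 replicate 1). Only 2 of the 4 were called without FR1 replicate 1 or without FR2 replicate 1, and 3 without either of the other arrays. Of 22 costimulatory receptors and ligands 5 rose (22.7%, against 2.39% of all genes) and 1 fell (4.55%, against 2.91%). Their median was 0.14, and fewer were called in each direction where 1 array was left out. Tnfsf8, the 1 that fell, is a ligand, as are Tnfsf14 and Cd80 among those that rose. Icos, which sustains effector Tregs and their Il10, stood at 9.63 and 9.99 in FR1 and at 11.28 and 11.31 in FR2, 2.79-fold higher (adjusted p = 1.17e-05). Tnfrsf1b (TNFR2), which supports Treg expansion, rose by 0.89 ± 0.14 (adjusted p = 0.00094) and Cd80, a ligand for Ctla4 and Cd28, by 0.96 ± 0.13 (adjusted p = 0.000273). Tnfrsf18 (GITR) and Tnfrsf4 (OX40), both abundant on Tregs, differed by -0.22 and -0.24 and did not pass (adjusted p = 0.412 and 0.339).

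Genes by which Tregs are recognised went both ways. Of 25 measured, 6 rose (against 2.39% of all genes) and 4 fell (against 2.91%), and the median was -0.04. Itgae, Icos, Nt5e and Nrp1 were among those that rose. Ikzf2 (Helios), a transcription factor of thymus-derived Tregs, passed with 4 arrays (0.51, adjusted p = 0.0281) and in 0 of the 4 fits without 1 array (adjusted p up to 0.23). Gpr83, Ecm1, Gata1 and Il2ra fell. Il2ra (CD25), the alpha chain of the IL-2 receptor, was at 10.85 and 10.90 in FR1 and 10.12 and 10.17 in FR2. The fall of 0.73 on the log2 scale had an adjusted p of 0.00312, and of 0.0519 without FR2 replicate 1. Ecm1, a secreted matrix protein of activated and regulatory T cells, went from 10.46 and 10.48 to 9.11 and 9.23 (adjusted p = 1.51e-05).

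Transcription factors of effector differentiation rose in 11 of 36 cases (30.6%, against 2.39% of all genes). They fell in 1 case (2.78%, against 2.91% of all genes), and the median was 0.18. Maf, which drives Il10 in T cells, stood at 7.55 and 7.78 in FR1 and at 9.41 and 9.35 in FR2 (1.72 ± 0.14, adjusted p = 1.42e-06). Rora, a nuclear receptor of tissue Tregs and innate lymphoid cells, was at 8.04 and 8.23 in FR1 and 9.74 and 9.75 in FR2. Prdm1 (Blimp-1), a marker of Il10-producing effector Tregs, rose from 5.80 and 6.02 to 7.16 and 7.48 (2.66-fold, adjusted p = 2.13e-05). Ahr, the ligand-activated aryl hydrocarbon receptor, rose by 1.11 ± 0.14 (adjusted p = 0.000149), and Nr1d1, a repressor of the circadian clock, by 1.18 ± 0.14 (adjusted p = 8.18e-05). Tbx21 (T-bet), under which T cells express Cxcr3, was at 5.83 and 5.93 in FR1 and 6.93 and 6.998 in FR2 (2.12-fold, adjusted p = 9e-05).

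Factors widely linked to effector Tregs were not all among them. Irf4 differed by 0.32 (adjusted p = 0.263), its partner Batf by 0.26 (adjusted p = 0.304) and Gata3, of type 2 and tissue Tregs, by 0.38 (adjusted p = 0.105). Myb, a factor of T cell precursors and effector Tregs, was the 1 that fell (-0.57, adjusted p = 0.0165), and it passed in 0 of the 4 fits without 1 array (adjusted p up to 0.191). Without FR1 replicate 1 the number of higher factors was 7, and without each of the other arrays it was 9 or 11.

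**Figure D4:**
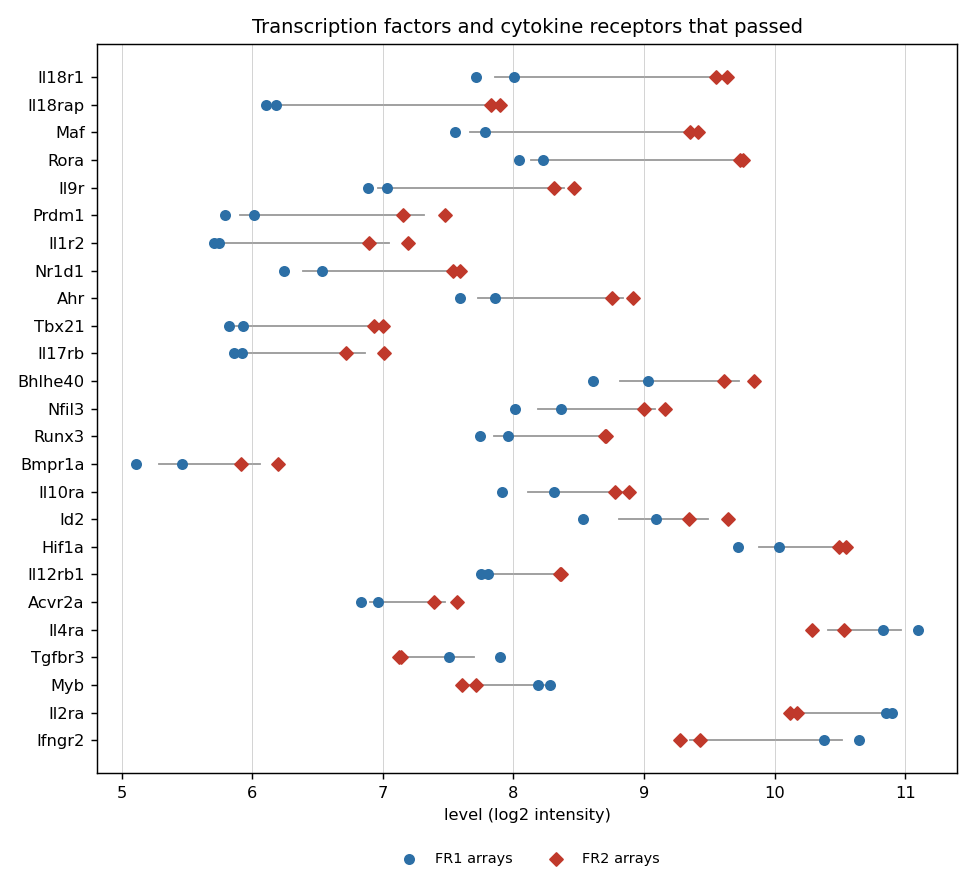
Levels (RMA log2 intensity) of the transcription factors and cytokine receptors that passed, on each of the 4 arrays, FR1 as blue circles and FR2 as red diamonds, with a grey line joining the group means. Maf, Rora, Prdm1, Il18r1 and Il18rap lie 1.4 to 1.7 log2 units higher in FR2, and Ifngr2 lies 1.16 lower.

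Cytokine receptors went both ways: 9 of 30 rose (against 2.39% of all genes) and 4 fell (against 2.91%), with a median of -0.07. Both chains of the IL-18 receptor rose together. Il18r1, the ligand-binding chain, went from 7.72 and 8.01 to 9.55 and 9.63, and Il18rap, the accessory chain, from 6.11 and 6.18 to 7.83 and 7.90 (adjusted p = 1.76e-06 and 9.21e-07). Il1r2, a decoy receptor for IL-1, rose by 1.32 ± 0.14 (adjusted p = 2.49e-05), Il9r by 1.43 ± 0.13 (adjusted p = 8.14e-06) and Il17rb, which binds IL-25, by 0.97 ± 0.14 (adjusted p = 0.00051). Ifngr2, the signalling chain of the interferon gamma receptor, stood at 10.38 and 10.65 in FR1 and at 9.28 and 9.43 in FR2, 2.23-fold lower (adjusted p = 9.69e-05). Il4ra passed at -0.56 with 4 arrays (adjusted p = 0.0339), but in 0 of the 4 fits without 1 array (adjusted p up to 0.355) and not with quantile normalization (0.0673). Leaving out 1 array gave 6 higher receptors, or 5 where it was FR2 replicate 2; lower receptors numbered 3 without FR1 replicate 1, 2 without FR1 replicate 2 or FR2 replicate 2, and 1 without FR2 replicate 1.

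Among 32 cytokines and chemokines 6 rose (18.8%, against 2.39% of all genes) and 1 fell (3.12%, against 2.91%), with a median of 0.11. Next to Il10 the largest were Ccl5 (RANTES), a chemokine of effector lymphocytes, at 7.75 and 7.78 in FR1 and 9.55 and 9.57 in FR2 (3.47-fold, adjusted p = 6.86e-07), and Cxcl10, a ligand of Cxcr3, at 7.29 and 7.75 in FR1 and 8.93 and 9.45 in FR2 (3.18-fold, adjusted p = 3.01e-05). Ifng rose by 0.92 ± 0.13 (adjusted p = 0.000492) and Csf1, a growth factor of macrophages, by 0.88 ± 0.14 (adjusted p = 0.00109). The macrophage inflammatory protein gene Ccl4 was at 5.54 and 5.17 in FR1 and 5.30 and 5.37 in FR2 (adjusted p = 0.962).

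Among 29 killer receptors and granule genes 4 rose (13.8%, against 2.39% of all genes) and 2 fell (6.9%, against 2.91%). The rise of Gzmb and Klrg1 was joined by Klrb1f, a C-type lectin receptor (1.27 ± 0.15, adjusted p = 6.27e-05), and Cst7, an inhibitor of granule cathepsins (0.94 ± 0.16, adjusted p = 0.00178, and 0.0596 without FR1 replicate 1). Ctsw, a cathepsin of cytotoxic lymphocytes, fell from 8.91 and 9.10 to 7.35 and 7.68 (2.81-fold lower, adjusted p = 1.17e-05), as Prf1 fell. Gzma lay between 4.38 and 4.62 on all 4 arrays (adjusted p = 0.967), under percentile 25 of each array.

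S100 proteins, annexins and galectins are calcium- and glycan-binding proteins of migrating cells. They rose in 8 of 23 cases (34.8%, against 2.39% of all genes) and fell in 0, with a median of 0.26. S100a4, which binds non-muscle myosin, stood at 7.04 and 6.95 in FR1 and at 9.40 and 9.31 in FR2 (5.12-fold, adjusted p = 8.55e-08). S100a6 was at 8.09 and 8.07 in FR1 and 10.01 and 10.01 in FR2, and S100a11 at 9.65 and 9.75 against 11.60 and 11.42. S100a10, of the same family, differed by 0.26 (adjusted p = 0.302), and the neutrophil gene S100a9 by 0.08 (adjusted p = 0.797). Anxa1, a phospholipid-binding mediator of resolution, rose by 1.67 ± 0.17 (adjusted p = 1.82e-05). Without FR1 replicate 1 or FR2 replicate 2 the higher members numbered 5, and without either of the other arrays 6.

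Among 37 genes of myosins, actin and motility 5 rose (13.5%, against 2.39% of all genes) and 2 fell (5.41%, against 2.91%). The median was 0.02. Myo1f, an unconventional myosin of leukocytes, was at 7.49 and 7.68 in FR1 and 9.90 and 10.02 in FR2, 5.19-fold higher (adjusted p = 8.55e-08). Myo1g, a related myosin of lymphocytes, was at 9.73 and 9.86 in FR1 and 9.81 and 9.83 in FR2 (adjusted p = 0.954). Cnn3 and Actn1 (alpha-actinin, -0.74 ± 0.13, adjusted p = 0.00256) fell. Without FR1 replicate 1 a single member was called higher, against 4 without each of the other arrays.

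Genes of the inflammasome and of the phagocyte oxidase rose in 9 of 18 cases (50.0%, against 2.39% of all genes). They fell in 2 (11.1%, against 2.91% of all genes), and the median was 0.69. This list was drawn up with earlier results for several of its members known, so its count is a description. Casp1, the protease that matures IL-1 beta and IL-18, stood at 6.56 and 6.22 in FR1 and at 8.003 and 7.78 in FR2 (2.83-fold, adjusted p = 1.29e-05). Casp4, its relative that senses bacterial lipopolysaccharide, rose from 7.14 and 6.89 to 8.66 and 8.48, and Naip5, a sensor of bacterial flagellin, from 5.16 and 5.86 to 7.07 and 7.42. The adaptor gene Pycard, the sensor gene Nlrp3 and the substrate gene Il1b did not pass (differences 0.06, 0.01 and -0.13). The 3 were named after their values were seen.

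The oxidase subunits went different ways. Cybb (gp91phox), the catalytic chain, was at 6.67 and 6.92 in FR1 and 8.73 and 8.64 in FR2, 3.71-fold higher (adjusted p = 6.86e-07). Cyba (p22phox), the chain it is bound to in the membrane, was at 11.16 and 11.02 in FR1 and 10.00 and 10.43 in FR2, 1.83-fold lower (adjusted p = 0.00276). Ncf1 (p47phox), the cytosolic organiser, was at 7.38 and 7.32 in FR1 and 6.67 and 6.68 in FR2 (adjusted p = 0.00537). Cyba and Ncf1 both lost their call without FR1 replicate 1 and without FR2 replicate 1, where no member of the list was called lower, with adjusted p up to 0.0764 and 0.0664. Glrx, a glutaredoxin that reduces oxidised proteins, rose by 1.56 ± 0.14 (adjusted p = 5.08e-06). The leukocyte receptors Lilrb4a and Lilr4b rose by 1.83 and 2.39 (adjusted p = 6.86e-07 and 2.33e-07). They are near-identical copies, so a probe may read both.

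Some of these genes are neighbours on the chromosome, in the gene order of RefSeq; the clusters were picked after their values were seen. Of the 4 tested genes of the IL-1 and IL-18 receptor cluster Il1r2, Il18r1 and Il18rap rose, and Il1rl2 between them did not pass (-0.12, adjusted p = 0.703). In the stretch of 7 genes from Fyco1 to Ccr2, the receptors Cxcr6, Ccr3 and Ccr2 rose, and Xcr1, Ccr1 and Ccr1l1 among them did not pass. Naip2, Naip5 and Naip6, near-identical copies whose probes may be shared, all 3 rose (1.06, 1.73 and 1.51), as did the pair Casp1 and Casp4. Of 12 genes of the S100 cluster, S100a4 and S100a6 rose.

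The BCL2 family sets the threshold of mitochondrial cell death. Of 17 genes 0 rose (against 2.39% of all genes) and 2 fell (11.8%, against 2.91%), 1 on each side of that balance. Bcl2, which protects cells, stood at 10.68 and 10.84 in FR1 and at 9.39 and 9.68 in FR2 (2.34-fold lower, adjusted p = 6.03e-05). Bcl2l11 (Bim), which kills them, stood at 9.83 and 10.13 in FR1 and at 8.39 and 8.63 in FR2 (2.77-fold lower, adjusted p = 1.36e-05). Both were called in every fit that left 1 array out. Mcl1, on which Treg survival depends, was at 11.80 and 11.95 in FR1 and 11.79 and 11.82 in FR2 (adjusted p = 0.849), and the median of the family was 0.01.

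Genes of T cell receptor signalling, and those it induces first, went both ways. Of 42 signalling genes 3 rose (7.14%, against 2.39% of all genes) and 3 fell (7.14%, against 2.91%), with a median of -0.04. Without 1 array 1 rose, or 2 where it was FR2 replicate 2, and 2 fell without FR1 replicate 1 or FR2 replicate 2 and 1 without either of the others. Malt1, a protease and scaffold of the NF-kappa B branch, rose from 9.51 and 9.71 to 10.57 and 10.63 (adjusted p = 0.000305), and Txk, a Tec family kinase, fell by 0.81 on the log2 scale (adjusted p = 0.00179). Of 33 immediate genes 2 rose and 2 fell (6.06% each), with a median of 0.09: Egr1 (0.57) and Rgs1 (0.55) up, Dusp2 (-0.57) and Myc (-0.69) down. None of the first 3 passed in any fit without 1 array (adjusted p up to 0.181, 0.142 and 0.174), and Myc lost its call without FR1 replicate 2 (0.116) or FR2 replicate 1 (0.141). Nr4a1 (Nur77), a direct readout of receptor signalling, was at 12.19 and 12.42 in FR1 and 12.05 and 12.24 in FR2 (adjusted p = 0.597).

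Of 39 division genes 3 rose (7.69%, against 2.39% of all genes) and 2 fell (5.13%, against 2.91%), and the median was 0.11. Those that rose were Mki67, Top2a and Cdkn2c (0.76, adjusted p = 0.00334). Ccnd3 (-0.58, adjusted p = 0.0362) and Mcm7 (-0.68, adjusted p = 0.0146) fell. Mki67, the proliferation antigen, was at 7.34 and 7.49 in FR1 and 8.27 and 8.32 in FR2, 1.84-fold higher (adjusted p = 0.000742) and called in each fit without 1 array. Top2a, a topoisomerase of dividing cells, rose by 0.71 ± 0.13 (adjusted p = 0.00542, but 0.0739 without FR1 replicate 1, 0.065 without FR2 replicate 2 and 0.246 for the mean of its probe sets). The G2 cyclin Ccnb2 went from 7.06 and 6.89 to 7.10 and 6.99 (adjusted p = 0.833). Leaving out 1 array gave between 1 and 4 higher members, with the lowest number without FR1 replicate 1, and 2 lower members without FR2 replicate 2 but 0 without any other array.

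Genes of energy metabolism and translation leaned lower. Lower calls made up 18.8% of the oxidative phosphorylation genes and 14.8% of the ribosomal protein genes, against 2.91% of all genes. Of 64 genes of oxidative phosphorylation 12 fell and 0 rose, with a median of -0.34. Atp5d, a subunit of the ATP synthase, stood at 11.06 and 11.13 in FR1 and at 10.05 and 10.32 in FR2 (-0.91 ± 0.14, adjusted p = 0.000854), and Atp5g2, of its membrane ring, fell by 0.81 on the log2 scale (adjusted p = 0.00144). Of 54 ribosomal protein genes 8 fell and 0 rose, with a median of -0.28; Rps9 was at 12.46 and 12.37 in FR1 and 11.71 and 11.87 in FR2 (adjusted p = 0.0104, and 0.0653 to 0.16 without each array but FR2 replicate 2). These counts rested on particular arrays and on the scaling. Lower oxidative phosphorylation genes numbered 2 without FR1 replicate 1 or FR2 replicate 1, 4 without FR1 replicate 2 and 11 without FR2 replicate 2. Lower ribosomal genes numbered 5 without FR2 replicate 2 and 0 without any other array, and with arrays put on equal quantiles the counts were 5 and 0, at medians of -0.28 and -0.13.

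In glycolysis 2 of 21 fell and 0 rose: the enolase Eno3, from 8.39 and 8.22 to 7.09 and 7.29 (2.17-fold lower, adjusted p = 0.000112), and Ldhb, a lactate dehydrogenase (-0.80 ± 0.15, adjusted p = 0.00468, and 0.0561 to 0.12 without each array but FR2 replicate 2). The 2 that fell were 9.52% of the measured glycolysis genes, against 2.91% of all genes. Neither Hk2 nor Pkm, enzymes of the first and last step, passed (differences 0.20 and -0.07). Of 19 genes of cholesterol synthesis limma called 0 (against 5.31% of all genes), with a median of -0.17. In the type I interferon response 3 of 28 fell (10.7%, against 2.91% of all genes), with a median of -0.07. Fewer fell where 1 array was left out. The largest fall was that of Usp18, which dampens the interferon receptor (-0.88 ± 0.15, adjusted p = 0.00218). Without 1 array the difference of Usp18 ran from -1.08 to -0.68. Its call was lost without FR1 replicate 2 or FR2 replicate 1. Of 8 GIMAP GTPases, which support survival of resting lymphocytes, Gimap3 and Gimap5 fell by 0.47 and 0.52 on the log2 scale (adjusted p = 0.0453 and 0.0292); 0 were called without any 1 array or with quantile normalization, where the median of the family was 0.01.

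**Figure D5:**
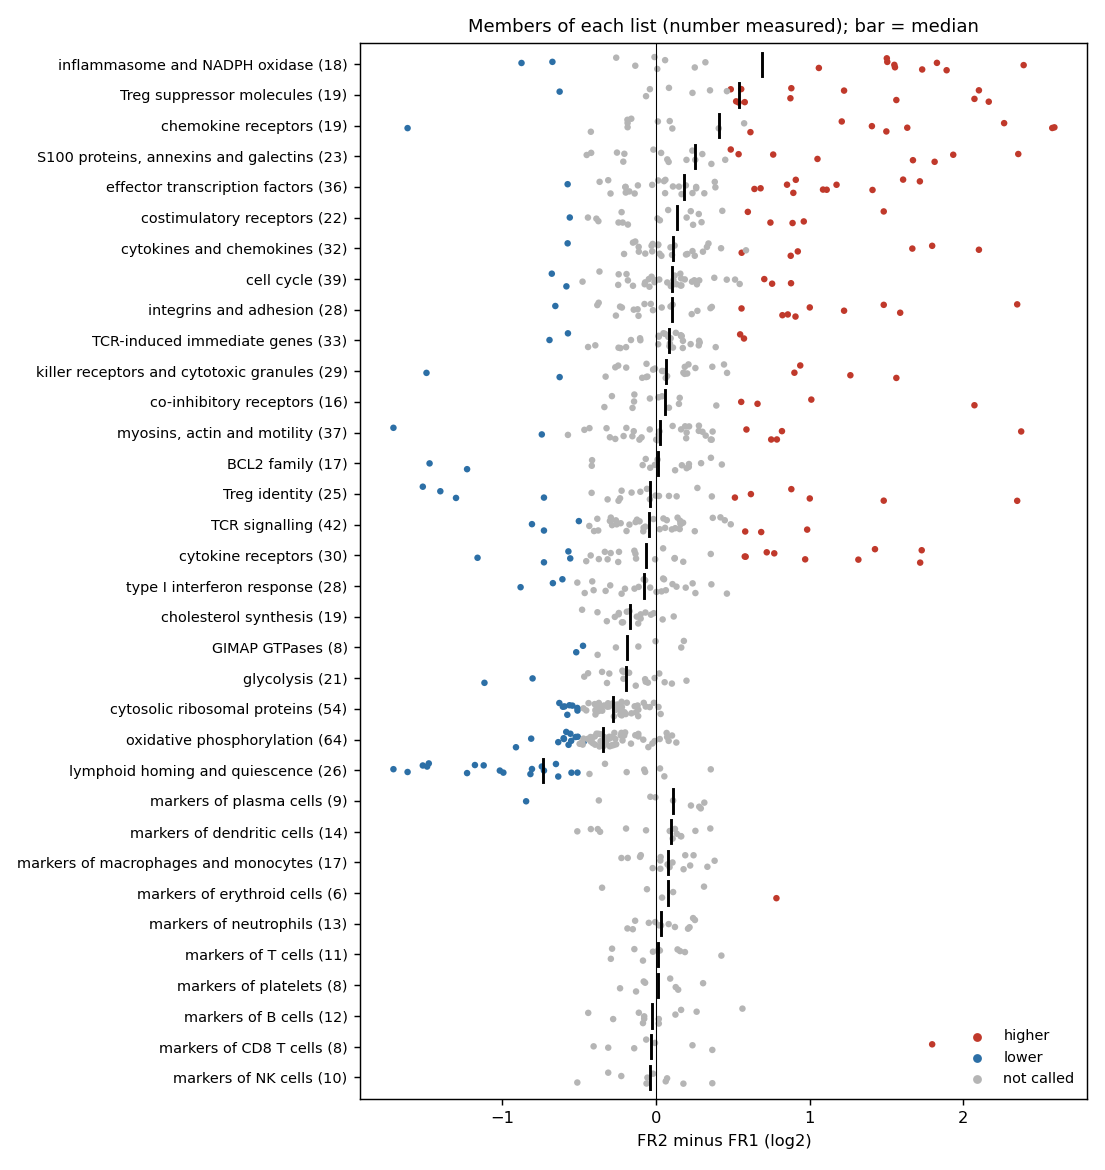
Difference FR2 minus FR1 (log2) of every measured member of each gene list, 1 point a member, red where it rose, blue where it fell and grey where it did not pass; a black bar marks the list's median. The medians run from -0.73 for lymphoid homing and quiescence to 0.69 for the inflammasome and oxidase list, and the marker lists of other cell types lie near 0.

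Few of the marker genes of other spleen cells were called, as were few of all genes (2.39% higher and 2.91% lower). The mean levels of some lists overlapped between the groups and those of others did not: 12 of B cells lay between 5.59 and 5.66 in FR1 and at 5.63 in FR2, 17 of macrophages and monocytes between 5.18 and 5.26 and between 5.28 and 5.32, and 10 of NK cells at 4.72 in FR1 and between 4.61 and 4.73 in FR2. Those of 8 CD8 T cell markers lay between 5.72 and 5.80 in FR1 and 5.89 and 6.00 in FR2, of 6 erythroid markers between 6.24 and 6.38 and between 6.41 and 6.50, and of 14 dendritic cell markers between 6.20 and 6.23 and between 6.17 and 6.19. Over the lists of B cells, macrophages and monocytes, dendritic cells, neutrophils, NK cells and platelets, limma called 0 members. Under percentile 25 on all 4 arrays were 3 of the 12 B cell markers, 5 of the 17 of macrophages and monocytes, among them Adgre1 and Lyz2, 2 of the 14 of dendritic cells, 7 of the 13 of neutrophils and 6 of the 10 of NK cells, among them Ncr1. Some markers were well above that level, such as Cd79b of B cells, between 7.49 and 7.61, and Cd8b1 of CD8 T cells, at 8.04 and 8.02 in FR1 and 7.51 and 7.74 in FR2 (adjusted p = 0.0975). Among plasma cell markers Jchain fell, at 4.88 and 4.10 in FR1 and 3.47 and 3.81 in FR2, under percentile 25 on every array; its adjusted p of 0.0215 became 0.198 without FR1 replicate 1, 0.253 without FR2 replicate 1 and 0.0729 with quantile normalization. Among CD8 T cell markers Ccl5 rose and Cd8a did not pass (-0.14, adjusted p = 0.675), and among erythroid markers Car2 rose (0.78, adjusted p = 0.00525, but 0.111 without FR1 replicate 2 or FR2 replicate 1). Their part in the results was not tested.

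Outside the lists, several further genes moved strongly. Zdhhc2, an enzyme that attaches palmitate to proteins, rose from 6.27 and 6.74 to 8.66 and 8.58, Atp6v0d2, a subunit of the vacuolar proton pump, by 2.07 ± 0.15, and Spock2, a secreted proteoglycan, by 1.99 ± 0.13 (adjusted p = 7.54e-07, 6.86e-07 and 3.58e-07). Gsta4, a glutathione transferase for lipid peroxides, fell from 8.81 and 8.36 to 6.81 and 7.05 (3.15-fold lower, adjusted p = 1.01e-05). The zinc transporter Slc30a4 and the inter-alpha-trypsin inhibitor chain Itih5 fell by 1.58 and 1.52 on the log2 scale. Plaur, the urokinase receptor, was at 7.17 and 7.85 in FR1 and 6.06 and 6.22 in FR2 (adjusted p = 0.000238). Cd24a, a glycoprotein of immature lymphocytes, fell from 5.42 and 5.95 to 4.06 and 4.20 (adjusted p = 2.3e-05), both FR2 arrays under percentile 25.

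The largest differences that did not pass had 1 array apart from its replicate. Rin2 was at 5.87 and 5.94 in FR1 and at 7.38 and 5.73 in FR2 (difference 0.65, adjusted p = 0.303). Ifi208 was at 7.72 and 9.41 in FR1 and 7.56 and 7.97 in FR2 (difference -0.79, adjusted p = 0.217).

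Levels in the CD69+ Klrg1- Tregs of the same array set (FR3 Klrg1-, 2 arrays) are set beside these without a test, since they were no part of the fit. For Tigit they were 10.07 and 10.40 and for Il10 9.25 and 9.80, above both FR2 arrays. For Cxcr3 they were 11.30 and 11.46, 1 below and 1 above both FR2 arrays. For Ccr2 they were 6.63 and 6.53 and for S100a4 7.33 and 7.59, above both FR1 arrays and below both FR2 arrays. Gsta4 stood at 8.59 and 8.46, between its FR1 arrays. Igfbp4, at 6.98 and 7.24, was below FR2.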

How the data were processed

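RNA of sorted splenic Tregs had been read on Affymetrix Mouse Gene ST 1.0 arrays. The deposited values are log2 intensities made with RMA, per the submitters' processing notes; its version, and whether all arrays were normalized together, are not given in the sources used here. RMA sets arrays on a common scale, so a shift of all RNA would not show. Of 35556 rows, 21789 had 1 gene symbol in the platform's annotation, and the brightest row a gene left 19938 genes, with no intensity filter. The 2 FR1 and 2 FR2 arrays belong to 1 of the 2 sets into which the arrays fall by correlation (0.901 to 0.917 with the other set). limma 3.58.1 in R 4.3.3 was fitted to these 4 arrays, with Benjamini-Hochberg adjustment over all genes at a threshold of 0.05. The fit was tested on simulated data of 4 arrays, with the spreads of these arrays shuffled among genes. It found 60% of 100 genes moved by 1 on the log2 scale and 93% of 100 moved by 2, and called 3 unmoved genes.

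Members, gene lists and alternatives were chosen with earlier results of these data known. Named were the 15 higher and 15 lower genes of largest difference, sort markers, the first 5 of each list, up to 6 called members a list and direction, and the 3 largest uncalled differences each way; antigen receptor segments and predicted, olfactory, vomeronasal or small RNA genes were not eligible for the first of these. Of these, the ones that carry the description are printed. Replicate numbers were not used to pair arrays.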

Additional observations from a re-analysis of the deposited data

Results flagged for a closer look

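Rows to which the platform's annotation gives no gene were used in no comparison. When every row of the table was fitted, 12 of the 12146 such rows passed limma, 7 higher and 5 lower in FR2. Their differences reached 2.13 and -1.99 on the log2 scale. With 2 arrays a group, outlying arrays could not be looked for within a group.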

How the results depend on the processing

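The 1058 calls (477 higher, 581 lower) became 1677 (654 and 1023) with an intensity trend in the variance and 1780 (658 and 1122) without genes under percentile 40. They became 66 (50 and 16) over every row of the table, 52 (41 and 11) over 9 arrays without an array set term, and 158 (103 and 55) at an absolute log2 difference of at least 1. Leaving out 1 array gave 345 to 750 calls, 206 to 292 higher and 120 to 458 lower; the group left with 1 array takes its spread from the other group and the prior. With the replicate number as a block there were 2358 calls (1017 higher, 1341 lower), all 1058 among them. The numbers were not taken as pairing, since there are only 2 pairs, whose deviations correlated at 0.182. The robust prior, array weights, every named probe set, the mean or another choice of probe set, the 6 arrays of the set and 9 arrays with a set block each gave between 851 and 1330 calls. Quantile normalization gave 887, with 486 higher and 401 lower. Of 139 called genes in the naming rule, 82 kept their call without any 1 array, 17 kept it under all 18 alternatives, and 0 reversed.

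Among genes named by the rule, signs turned only in the 104 that had not passed: in 12 with quantile normalization, in 1 with the mean of a gene's probe sets and in 10 to 13 without 1 array. Those printed in the report are given here, with Nlrp3 added from outside the rule and its counts. With quantile normalization, they were Adgre1 (-0.01), Mcl1 (0.11), Foxo1 (0.01), Nr4a1 (0.08), S1pr1 (0.03) and Nlrp3 (-0.04). Without 1 array, they were Adgre1 (-0.07 to 0.13), Ccl4 (-0.20 to 0.16), Ccnb2 (-0.01 to 0.16), Cd79b (-0.04 to 0.07), Cd8a (-0.33 to 0.05), Foxp3 (-0.12 to 0.16), Gzma (-0.14 to 0.10), Ifi208 (-1.64 to 0.05), Mcl1 (-0.14 to 0.01), Myo1g (-0.04 to 0.09), Nlrp3 (-0.06 to 0.08), Rin2 (-0.18 to 1.48) and Xcr1 (-0.12 to 0.30). The cause of these shifts was not tested.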
